A study of Mus musculus with 42 samples.

Results

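Oxidative phosphorylation subunits are the proteins of the 4 respiratory chain complexes and of ATP synthase, here followed as messenger RNA in sorted T cells of mice that overproduce TNF. They were taken by symbol from the table of raw counts: protein-coding genes named Ndufa, Ndufb, Ndufc, Ndufs or Ndufv (complex I), Sdha to Sdhd (complex II), Uqcr (complex III), Cox4 to Cox8 (complex IV) and Atp5 (ATP synthase, complex V), plus the subunits encoded by mitochondrial DNA. Ndufaf assembly factors were left out. Of 98 such genes among 46603 in the table, 85 had a mean of at least 1 CPM (count scaled to a common library size) over all libraries. These were 78 nuclear genes, with 36 in complex I, 4 in complex II, 8 in complex III, 13 in complex IV and 17 in complex V, and 7 mitochondrial genes. Atp5l, at 3.21 CPM, and Ndufa4l2, at 1.6 CPM, were the lowest kept, and mt-Co3 at 0.97, mt-Nd3 at 0.93 and Cox6b2 at 0.64 CPM lay just below the limit. Ndufa4l2 was kept through the libraries where it is high: 1158 of its 1435 counts were in the synovium, and its mean over the other libraries was 0.365 CPM. Of the kept members, 75 nuclear and 7 mitochondrial genes had a mean of at least 10 CPM.

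The study sorted CD4 T cells into a regulatory (Treg) and a conventional (Tconv) fraction by flow cytometry on a green fluorescent reporter of Foxp3. The TNFdARE mice were those whose Tnf gene lacks the AU-rich element that destabilises its transcript, and their wild-type (WT) littermates served as controls. Both genotypes carried the DEREG transgene, which places the reporter and a diphtheria toxin receptor under Foxp3 control. The sites were the ileum with its draining mesenteric node, and ankle synovium with the inguinal and popliteal nodes, called the joint nodes here. Zygosity, age and the number of animals behind a library are not given in the labels, so a p-value reflects only spread among these samples, which may be partly technical. The 42 libraries form 16 groups from 3 independent experiments named A, B and C. Most groups had 3 libraries. In the mesenteric node both TNFdARE groups lacked experiment A and had 2. Experiment C was missing for synovial Tconv of TNFdARE mice and for synovial Treg of WT mice, which had 2 libraries, and synovial Tconv of WT mice was 1 library of experiment A with no replicate.

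Complexes I to IV pass electrons to oxygen and, except for complex II, pump protons across the inner mitochondrial membrane, and ATP synthase uses the proton gradient to make ATP. Most subunits are encoded in the nucleus and imported, while mitochondrial DNA encodes a few core subunits of complexes I, III, IV and V. Treg are known for a greater reliance on mitochondrial respiration than activated effector T cells, which lean on glycolysis.

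Total counts lay between 18261064 and 30301202 per library. Genes detected varied more, from 13341 in WT synovial Treg A to 31454 in WT joint-node Tconv C, and WT ileal Treg C had 14712. What this spread does to the results that turn on single libraries was not tested. Foxp3, the factor that defines Treg, averaged 856 to 1420 CPM in the 8 Treg groups and 6.74 to 136 CPM in 7 of the Tconv groups. The libraries labelled TNFdARE synovial Tconv stood apart, with 604 ± 11.3 CPM of Foxp3 (SD, n = 2), so synovial comparisons with Tconv rest on cells whose label and Foxp3 level do not separate cleanly. WT synovial Treg B, at 556 CPM, lay below both of them. Foxp3 was also higher in TNFdARE than in WT Tconv of the ileum (9.08-fold), mesenteric node (4.3-fold) and joint nodes (5.19-fold). Each passed the edgeR test (adjusted p = 6.0e-05, 6.3e-05 and 2.5e-08). Comparisons that use Tconv carry this difference, and its part in them was not tested. The deletion removes an element of Tnf and not the gene, so its level does not check the genotype. Tnf averaged 107 ± 18.4 CPM in TNFdARE and 80.4 ± 18.6 CPM in WT Treg of the joint nodes (n = 3 each), and 35.9 ± 4.56 and 22.5 ± 4.18 CPM in TNFdARE and WT ileal Treg (n = 3 each). In mesenteric Treg and in Tconv of both nodes every TNFdARE library lay above every WT library. Ileal Tconv overlapped, with 91.0, 77.0 and 82.4 CPM in TNFdARE against 95.1, 83.7 and 65.6 CPM in WT, and synovial Treg overlapped as well. Synovial Tconv had 165.8 and 130.2 CPM in TNFdARE against 180.7 CPM in the WT library. Stromal marker genes summed to 1490–6750 CPM in TNFdARE and 16400–16800 CPM in WT synovial Treg, and to 6.22–56.7 CPM in joint-node libraries. Plasma cell markers summed to 258–9720 CPM in TNFdARE and 559–3250 CPM in WT ileal Treg. In bulk RNA, fewer cells of a type and less RNA per cell cannot be told apart.

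Levels between genes are compared on the authors' deposited FPKM values, which divide by a gene length. Which length was used is not given in the sources used here, and it weighs on the order of genes. Ndufab1 had 34.6 CPM and 4.44 FPKM, while Atp5l had 3.21 CPM and 8.77 FPKM. The order below therefore holds for FPKM and may not be the order of transcript levels. The mitochondrial genes led, with mean FPKM of 1610 for mt-Co1, the catalytic subunit of complex IV, 1460 for mt-Cytb, cytochrome b of complex III, and 917 for mt-Nd1, a membrane subunit of complex I. Among nuclear members the highest mean FPKM belonged to Atp5b, the catalytic beta subunit of ATP synthase, at 314, and to the complex IV subunits Cox6b1 at 296, Cox6a1 at 292 and Cox8a at 273. The median of mean FPKM was 38.5 in complex I, 76.1 in complex II, 78.5 in complex III, 73.0 in complex IV, 51.8 in complex V and 381 for the mitochondrial members. The lowest values were those of Ndufa4l2 (1.71), Ndufb2 (1.78), Ndufab1 (4.44), Atp5g2 (6.07) and Atp5l (8.77 mean FPKM).

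Across the 16 groups most nuclear members kept a narrow range. For the 77 nuclear members other than Ndufa4l2, the ratio of the highest to the lowest group mean had a median of 1.8 (range 1.38–3.73), and it was under 2 for 53 of them. It reached 3 or more for 4: Cox7a2l at 3.73, Atp5s at 3.31, Ndufa1 at 3.25 and Ndufb2 at 3.13. TNFdARE mesenteric Tconv was the highest group for 30 of these members, and WT synovial Treg the lowest for 29. Both groups had 2 libraries, and the single WT synovial Tconv library was highest for 11. Means of so few libraries can lie further out. Stromal marker RNA was highest in WT synovial Treg, and neither point was tested. The summed CPM of the 78 nuclear members averaged 10540 in TNFdARE mesenteric Tconv and 6949 in WT synovial Treg. One of the 2 WT synovial Treg libraries, A, also departed on a single gene: Ndufs1, the largest subunit of complex I, was at 22.81 CPM there and at 116.6 CPM in B.

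**Figure D1:**
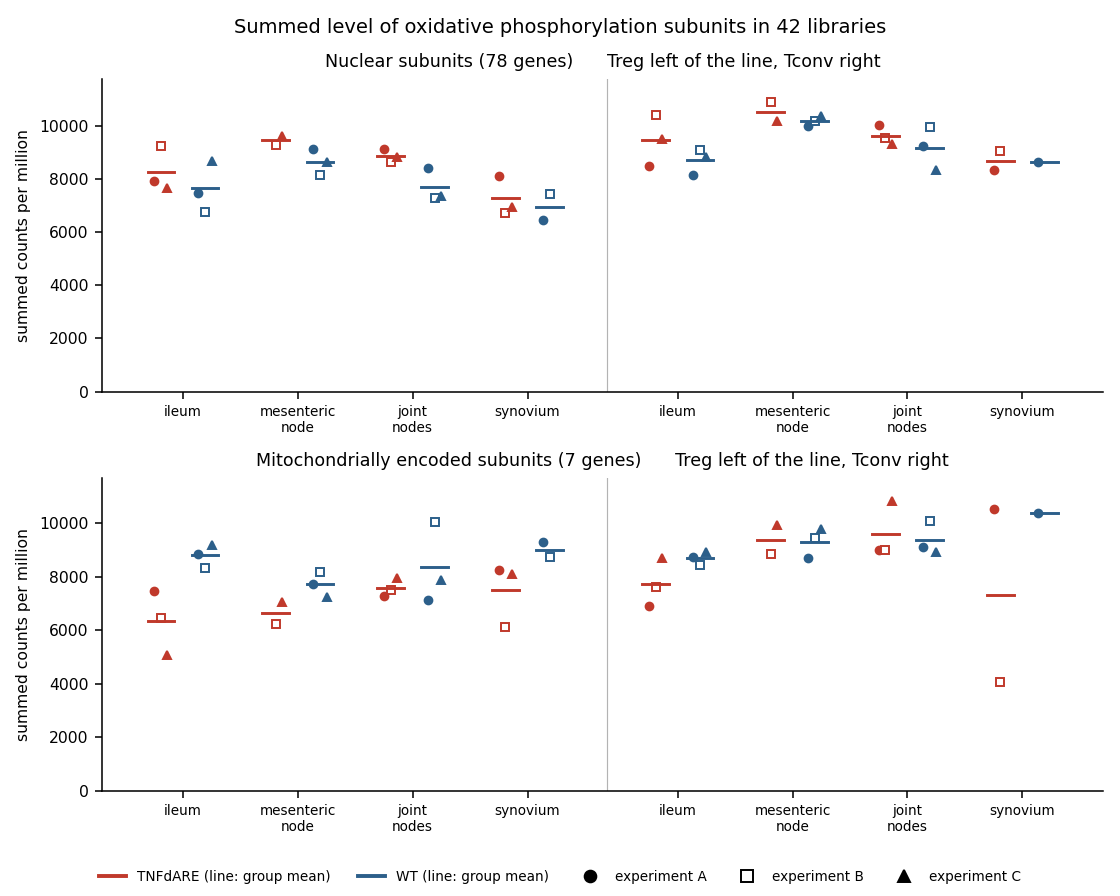
CPM (TMM library sizes) summed over the 78 nuclear members (top) and the 7 mitochondrial members (bottom) in each of 42 libraries, by site, with Treg left and Tconv right of the line; symbols mark the experiment and horizontal lines the group means. TNFdARE ileal Treg lie lowest for the mitochondrial members among Treg groups, with a mean of 6331 against 8797 CPM in WT, and a TNFdARE synovial Tconv library of experiment B stands at 4060 CPM.

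Of the 13 mitochondrial protein genes, 6 had almost no counts. Over all 42 libraries mt-Nd4l and mt-Atp8 had 0 counts, mt-Co2 21, mt-Atp6 348, mt-Co3 844 and mt-Nd3 864, while the 7 kept genes had 203802 (mt-Nd6) to 2707356 (mt-Co1) counts. In the GRCm38 annotation a stretch of chromosome 1, between 24611535 and 24616197, holds pseudogene copies of mitochondrial genes. Windows of 100 bases taken along mt-Nd3, mt-Nd4l, mt-Co2, mt-Co3 and mt-Atp6 were identical to another annotated gene for 97.59% to 99.85% of windows, against 60.75% for mt-Nd4, 30.84% for mt-Co1, 3.19% for mt-Nd2 and 0% for mt-Nd1, mt-Nd5, mt-Nd6 and mt-Cytb. For mt-Atp8 the share was also 0%. Only annotated genes were searched, so that share does not show that mt-Atp8 lacks a copy. The bases of chromosome 1 between the annotated copies of its neighbours, mt-Atp6 and mt-Co2, were not searched. The chromosome 1 copies themselves were counted 4 to 742 times. The start of mt-Nd3, a core subunit of complex I, is shown beside its copy Gm28438 because a single base separates the gene and the copy over 345 aligned bases. Sequences are from the GRCm38 reference, 5′ to 3′, and the capital marks the substitution T3C, with positions counted from 1 at the first base of mt-Nd3.
mt-Nd3 (chrM:9459-9491, plus strand): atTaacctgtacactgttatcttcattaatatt
Gm28438 (chr1:24613087-24613119, minus strand): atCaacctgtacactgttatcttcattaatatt
How the counting treated reads that fit both places is not given in the sources used here, and its part in the low counts was not tested. Values of mt-Nd4 and mt-Co1 carry the same uncertainty. Among nuclear members, 47 of 78 shared no 100-base window with another gene and none shared 50% or more, the highest being Atp5g2 at 34.7% and Atp5o at 27.9%.

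**Figure D2:**
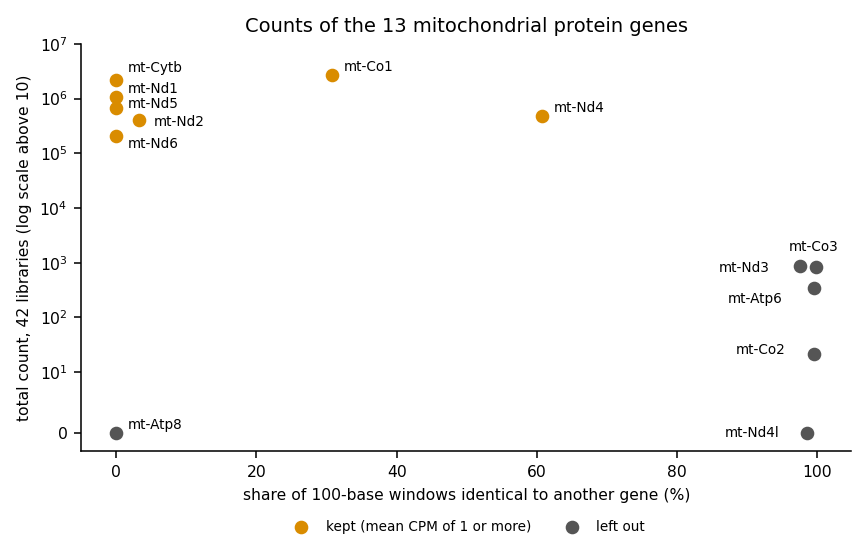
Total count over 42 libraries (vertical axis, logarithmic above 10) of the 13 mitochondrial protein genes against the share of their 100-base windows identical to another annotated gene (%). The 5 genes with a share of 97.59% or more lie at or below 864 counts, and mt-Atp8 is at 0 counts with a share of 0%. Copies that are not annotated were not searched.

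The first question was whether TNFdARE cells differ from WT cells of the same type and site. The nuclear subunits stood highest relative to WT in Treg of the joint nodes. There Cox6b1, Ndufb9, Ndufa12, Ndufa6, Uqcrh and Ndufv2 were higher in TNFdARE by 0.28 to 0.34 on the log2 scale and passed the test, none was lower (2.34% of all genes tested were), and 71 of 77 members tested had a fitted change above 0. That is 6 higher among 77 nuclear members, where 3.36% of all genes tested were higher (edgeR quasi-likelihood test, adjusted p below 0.05 over all genes). With the experiment as a replicate block, 20 were higher, against 5.59% of all genes. With the sample-sheet number as a covariate 0 passed, and with a looser filter on low counts 2 did, both given without their share of all genes. The sample-sheet number comes from the library names, and what it stands for is not given. Among joint-node libraries it rises with the experiment and is higher in WT than in TNFdARE within each. A fit with it therefore cannot cleanly separate it from genotype. The median log2 fold change was 0.22 over the nuclear members and -0.02 over all genes tested, and by complex it was 0.20 in I, 0.24 in II, 0.25 in III, 0.28 in IV and 0.19 in V.

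Cox6b1, a complex IV subunit that helps to join its dimer (chromosome 7, 30616861 to 30626151, GRCm38), had 166.9, 160.9 and 159.4 CPM in TNFdARE against 142.9, 117.5 and 124.4 CPM in WT joint-node Treg (A, B and C). Every TNFdARE library lay above every WT library, and the fitted log2 fold change was 0.34 ± 0.09 (edgeR, adjusted p = 0.035). Tconv of the same nodes showed no such separation, with 159, 155.8 and 145.6 CPM in TNFdARE and 144, 165.1 and 133.3 CPM in WT. Uqcrh, the hinge subunit of complex III (chromosome 4, 116066965 to 116075071), had 101.5, 109.4 and 105.8 CPM in TNFdARE against 96.11, 81.78 and 83.01 CPM in WT, without overlap (0.28 ± 0.08, edgeR adjusted p = 0.048).

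The other 4 belong to complex I. Ndufv2, a subunit of the arm that takes electrons from NADH (chromosome 17, 66078638 to 66101559), had 140.7, 125.9 and 127.9 CPM in TNFdARE against 117.6, 101.1 and 103.2 CPM in WT (0.29 ± 0.08, edgeR adjusted p = 0.050, before rounding 0.04986). The accessory subunit Ndufa12 (chromosome 10, 94198720 to 94221443) had 29.41, 29.56 and 28.4 CPM against 24.27, 22.11 and 22.75 CPM in WT (0.33 ± 0.09, adjusted p = 0.047). Neither gene overlapped between the genotypes. Ndufa6 (chromosome 15, 82350140 to 82354322), also an accessory subunit, had 69.46, 74.28 and 74.18 CPM against 63.55, 54.97 and 58.11 CPM in WT (0.30 ± 0.08, adjusted p = 0.048). Ndufb9, an accessory subunit of the membrane arm (chromosome 15, 58933756 to 58939488), had 94.78, 84.56 and 88.38 CPM against 77.02, 72.43 and 67.72 CPM in WT (0.30 ± 0.08, adjusted p = 0.044). All 6 kept adjusted p-values below 0.05 with the replicate block.

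Each of the 6 calls was lost in at least some of the 12 fits that left out a single library of the site. Cox6b1 passed in 5 of them, Ndufb9 in 3, Ndufa6, Uqcrh and Ndufv2 in 2 each and Ndufa12 in 1. The number of members called ran from 0 without any single TNFdARE Treg library, without WT Treg B or C, or without Tconv A of either genotype, to 31 without WT Treg A. Shares of all genes in these fits are not given here. The range may therefore follow fits that call more or fewer genes in general.

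TNFdARE libraries lay above every WT library for 42 of the 77 nuclear members in joint-node Treg and below for 2, Atp5l and Atp5s, where 14.6% of all genes tested lay wholly above and 11.5% wholly below. Core subunits had smaller fitted changes and did not pass: Sdha, the flavoprotein of succinate dehydrogenase, had a log2 fold change of 0.16, as did Atp5b and Uqcrc1, a core subunit of complex III. Ndufs1 stood at -0.06. Cox4i1, the main regulatory subunit of complex IV, had 219.5, 211.0 and 213.9 CPM in TNFdARE against 194.4, 166.6 and 160.2 CPM in WT and missed the threshold (0.30 ± 0.09, edgeR adjusted p = 0.058). Within the same experiment, the mean log2 difference over the nuclear members was 0.111 in A, 0.24 in B and 0.257 in C. Proliferation markers summed to 383 ± 43.6 CPM in TNFdARE and 343 ± 22.9 CPM in WT, with 0 of 8 called, and plasma cell markers to a mean of 28.1 and 7.77 CPM. Their part in the result was not tested.

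**Figure D3:**
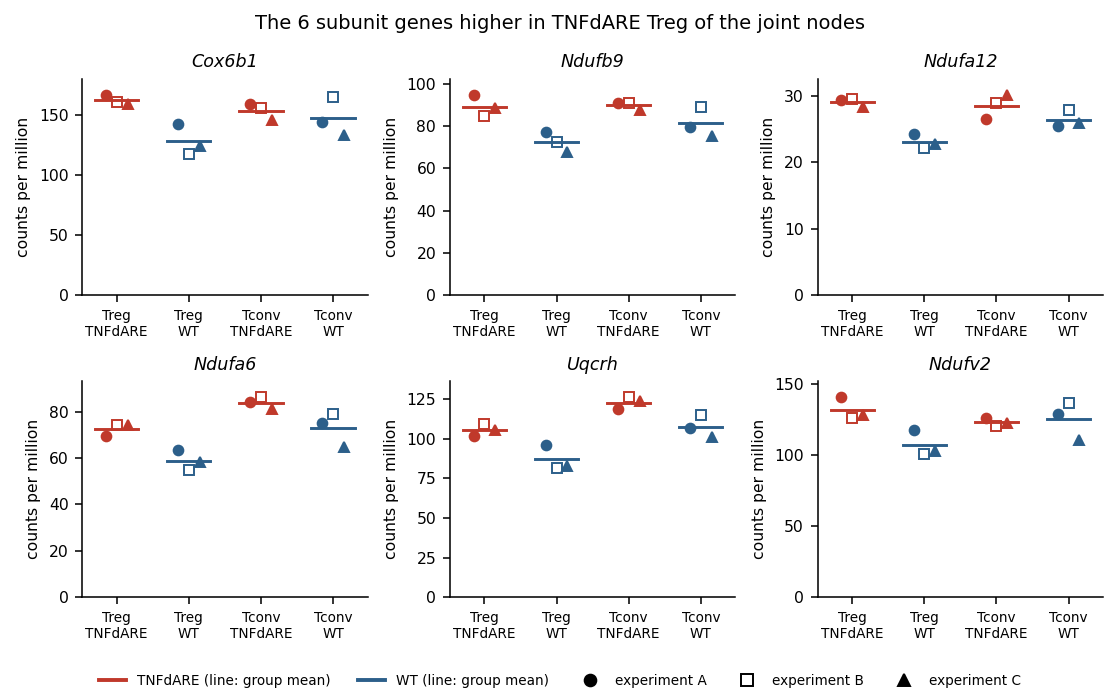
CPM of the 6 members called in joint-node Treg, in all 12 joint-node libraries; each panel shows TNFdARE and WT Treg, then TNFdARE and WT Tconv, with lines at group means and axes from 0. The 3 TNFdARE Treg libraries lie above the 3 WT Treg libraries in each panel.

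Promoters of 3 of the 6 called members are shown because nuclear subunit genes are textbook targets of the factors NRF1 and GABPA. RefSeq start sites (GRCm38.p6) matched 65 of the 78 nuclear members, and windows from 250 bases before to 50 after the start were searched on both strands. The NRF1 core GCATGCGC was in 10 of 65 (15.4%), against 3.9% of 17491 genes with a window. A longer NRF1 consensus that contains that core was in 7.7% of members and 1.5% of genes, the GABPA word CCGGAAGT in 7.7% and 5.7%, the YY1 word AAGATGGC in 15.4% and 3.6%, and CCAATC in 18.5% and 20.7%. The 120 bases before the start are printed, with the NRF1 core in capitals in Ndufa6 and the GABPA word, read on the other strand as ACTTCCGG, in capitals in Uqcrh.
Ndufa6 (chr15:82354292-82354411, minus strand): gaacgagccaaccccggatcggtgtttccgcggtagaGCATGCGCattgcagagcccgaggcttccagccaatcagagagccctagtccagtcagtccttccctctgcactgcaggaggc
Uqcrh (chr4:116075071-116075190, minus strand): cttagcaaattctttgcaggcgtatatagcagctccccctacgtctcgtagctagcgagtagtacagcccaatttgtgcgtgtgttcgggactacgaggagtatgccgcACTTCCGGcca
Cox6b1 (chr7:30626115-30626234, minus strand): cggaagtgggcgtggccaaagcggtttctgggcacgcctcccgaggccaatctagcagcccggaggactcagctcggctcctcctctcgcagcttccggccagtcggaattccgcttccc
Within these 120 bases neither word was in Cox6b1, Ndufa12, Ndufv2 or Cox7a2l, Ndufb9 was not among the matched members and was not searched, and a match describes letters only.

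In mesenteric Treg the nuclear members had a similar tilt, yet none passed. The fitted change was above 0 for 74 of 77, with a median of 0.18 on the log2 scale against 0.01 over all genes, and 22 had an unadjusted p under 0.05, as did 19.1% of all genes. The edgeR test called 0 of them, where 5.68% of all genes were called. DESeq2 called 2 higher and 1 lower among all members, counts given without their share of all genes. Both TNFdARE libraries lay above all 3 WT libraries for 37 of 77 nuclear members, where 18.4% of all genes did. Closest to the threshold was Ndufb11, an accessory subunit of complex I, at 0.27 ± 0.08 (edgeR adjusted p = 0.075). The mitochondrial members went the other way in sign, with a median of -0.23 and 5 of 7 below every WT library, where 17% of genes were. Within experiments, the mitochondrial mean difference was -0.472 in B and -0.042 in C.

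Ileal Treg showed the lowest mitochondrial transcripts relative to WT among the node and gut comparisons. All 7 mitochondrial members had a negative fitted change, from -0.63 to -0.43 on the log2 scale, and an unadjusted p under 0.05 (13% of all genes had one), but none passed after adjustment over all genes (edgeR, 0.729% of genes called). mt-Nd5, a proton-pumping subunit of complex I (mitochondrial genome, 11742 to 13565), had 520.2, 475.2 and 469.1 CPM in TNFdARE against 697.9, 721.8 and 821.8 CPM in WT. The genotypes did not overlap, and the change was -0.63 ± 0.14 (edgeR adjusted p = 0.086), or -0.62 ± 0.12 with the replicate block, where it passed (adjusted p = 0.037, with 0.553% of genes lower). mt-Nd4, another proton-pumping subunit, had 406.3, 434.6 and 346.1 CPM in TNFdARE against 568.2, 562.9 and 569.8 CPM in WT, again without overlap (-0.53 ± 0.12, edgeR adjusted p = 0.079). TNFdARE libraries lay below every WT library for 6 of the 7, where 5.16% of all genes did, the exception being mt-Co1 with 2819, 2442 and 1727 CPM against 3244, 2790 and 3296 CPM. DESeq2 called 5 members lower, a count given without its share of all genes.

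The nuclear members of ileal Treg did not follow the mitochondrial ones. Of 78, 62 had a fitted change above 0 (median 0.10), none passed, and 8 lay wholly above WT, where 8.07% of all genes did. The experiments differed in sign: the mean nuclear difference was 0.135 in A, 0.477 in B and -0.216 in C, while the mitochondrial one was -0.301, -0.423 and -0.796. Ileal Treg libraries also differed in plasma cell RNA, as given above, and its part in these values was not tested.

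In the remaining genotype comparisons the edgeR test called no member. Nuclear medians were 0.16 in ileal Tconv, 0.04 in mesenteric Tconv, 0.07 in joint-node Tconv, 0.08 in synovial Treg and 0.01 in synovial Tconv, where 1.31%, 2.36%, 2.79%, 0.156% and 0.512% of all genes were called. At an unadjusted p under 0.05 the nuclear members numbered 5 in ileal Tconv, 0 in mesenteric Tconv, 4 in joint-node Tconv, 4 in synovial Treg and 3 in synovial Tconv, where 7.55%, 11.3%, 10.7%, 9.98% and 8.34% of all genes had such a p. In synovial Treg, 10 nuclear members lay wholly above WT and 10 wholly below, where 14.3% and 11.8% of genes did. Of the 7 mitochondrial members, none lay wholly above WT there and 5 lay wholly below, with a mean difference of -0.294 in experiment A and -0.536 in B. The change in Treg was also set against that in Tconv of the same site. The difference passed for 0 members in the ileum, the mesenteric node and the joint nodes (edgeR interaction, 0.0188%, 0.209% and 0.449% of genes called), so a larger change in Treg than in Tconv was not shown.

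**Figure D4:**
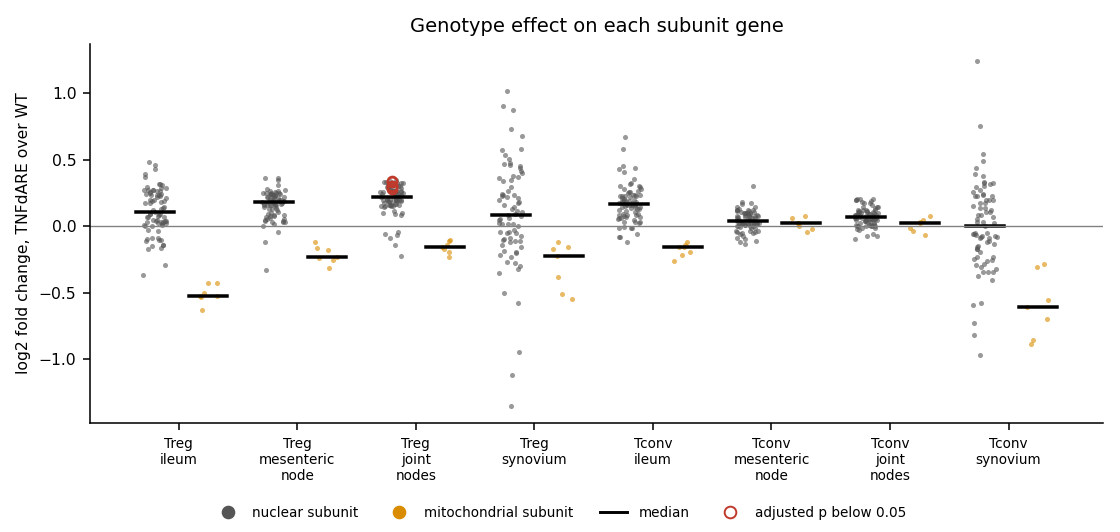
Fitted log2 fold change of TNFdARE over WT for each member in the 8 comparisons; grey points are nuclear members (Ndufa4l2 is not drawn), orange points the 7 mitochondrial members, black lines medians, and red rings mark adjusted p below 0.05. The rings appear in joint-node Treg only, and the mitochondrial medians are -0.53 in ileal Treg and 0.02 in joint-node Tconv.

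The second question was how Treg differ from Tconv at each site, averaged over the genotypes with equal weight. In the nodes, members of each of the 5 complexes were lower in Treg. In the joint nodes 36 of 77 nuclear members were lower in Treg and 1 was higher, where 21.2% of all genes were lower and 22.1% higher (edgeR). In the mesenteric node 25 of 77 were lower and none higher, where 17.8% of genes were lower and 20.8% higher. The nuclear medians were -0.18 and -0.15 on the log2 scale. By complex, the joint nodes had 16 of 36 lower in I, 2 of 4 in II, 3 of 8 in III, 7 of 12 in IV and 8 of 17 in V, and the mesenteric node 9 of 36, 2 of 4, 2 of 8, 3 of 12 and 9 of 17. Mitochondrial members were lower as well, 5 of 7 in the joint nodes and 7 of 7 in the mesenteric node.

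Cox7a2l, which joins complexes III and IV into supercomplexes (chromosome 17, 83501918 to 83517330), differed most among the nuclear members lower in joint-node Treg. It had 62.22, 67.34 and 71.76 CPM in TNFdARE Treg and 62.14, 48.73 and 49.12 CPM in WT Treg, against 99.7, 91.61 and 96.99 CPM in TNFdARE Tconv and 84.73, 95.82 and 70.24 CPM in WT Tconv. A single Treg library, TNFdARE C, lay above the lowest Tconv library, and the log2 fold change was -0.59 ± 0.08 (edgeR adjusted p = 1.6e-05). In the mesenteric node it was -0.39 ± 0.07 (adjusted p = 0.0012).

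Sdha (chromosome 13, 74322254 to 74350280) had 407.0, 409.3 and 420.8 CPM in TNFdARE and 395.9, 363.5 and 341.5 CPM in WT Treg of the joint nodes, against 514.3, 469.2 and 486.2 CPM in TNFdARE and 485.6, 496.8 and 438.1 CPM in WT Tconv. All 6 Treg libraries lay below all 6 Tconv libraries (-0.32 ± 0.05, edgeR adjusted p = 6.2e-05), and the mesenteric difference was the same to 2 decimals (-0.32 ± 0.06, adjusted p = 0.00085). Atp5h, a subunit of the peripheral stalk of ATP synthase, was lower in Treg at 3 sites, with log2 changes of -0.36 ± 0.06 in the joint nodes, -0.39 ± 0.06 in the mesenteric node and -0.51 ± 0.11 in the ileum. The one nuclear member higher in Treg was Atp5s, a coupling factor of ATP synthase, at 10.3, 10.57 and 10.08 CPM in TNFdARE and 10.8, 12.49 and 10.69 CPM in WT Treg, against 7.471, 8.977 and 7.816 CPM in TNFdARE and 7.441, 9.083 and 7.799 CPM in WT Tconv (0.40 ± 0.11, edgeR adjusted p = 0.0064).

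Among mitochondrial members mt-Nd1 (2751 to 3707) had 699.2 and 707.4 CPM in TNFdARE and 871.2, 1025 and 765.6 CPM in WT mesenteric Treg, against 1093 and 1139 CPM in TNFdARE and 1068, 1167 and 1147 CPM in WT Tconv. All Treg libraries lay below all Tconv libraries (-0.49 ± 0.07, edgeR adjusted p = 0.00021). mt-Co1 was lower too, at -0.40 ± 0.06 in the mesenteric node (adjusted p = 0.00022) and -0.32 ± 0.08 in the joint nodes (adjusted p = 0.0043). Of the 42 calls in the joint nodes 34 passed in every fit that left out 1 library, as did 19 of 32 in the mesenteric node, where the number of calls was 20 without TNFdARE Tconv B. The last count is given without its share of all genes. Proliferation markers differed between the same cells, with 7 of 8 higher in Treg of the joint nodes and 4 of 8 in the mesenteric node. Their part in the subunit differences was not tested.

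In the ileum 6 of 78 nuclear members were lower in Treg, a share near the 6.85% of all genes that were lower, and no mitochondrial member passed. They were Ndufa1, an accessory subunit of complex I encoded on the X chromosome, the complex V members Atp5h, Atp5b, Atp5f1 and Atp5g3, and Cox6a1. Ndufa1 had 59.17, 82.22 and 60.85 CPM in TNFdARE and 42.02, 47.43 and 55.82 CPM in WT Treg, against 88.57, 151.1 and 113.9 CPM in TNFdARE and 68.59, 76.63 and 78.19 CPM in WT Tconv (-0.69 ± 0.14, edgeR adjusted p = 0.0070). TNFdARE Treg B was the one Treg library above the lowest Tconv libraries. Without WT Treg C, 17 members were called, and with the sample-sheet number as a covariate 1 was, Atp5b, both given without their share of all genes. In the synovium none passed, with a nuclear median of -0.33 (edgeR, 1.1% of genes called). By DESeq2 3 were lower, a count given without its share of all genes. There 11 nuclear members had an unadjusted p under 0.05 (edgeR), as did 11.2% of all genes.

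The third question was how cells in the tissue differ from the same cell type in its draining node. More members passed as lower than as higher in the tissue. The share that was lower stood above that of all genes in ileal Tconv, ileal Treg and synovial Tconv, and near it in synovial Treg. In the ileum against the mesenteric node, 15 of 78 nuclear members were lower and 3 higher in Treg, where 12.2% of genes were lower and 17% higher (edgeR), and 37 of 77 were lower and 4 higher in Tconv, where 26.7% and 34.3% were. With the replicate block the ileal Treg calls numbered 8 lower and 1 higher, where 10.5% and 13.9% of genes were, so the lower share was then near that of all genes. In the synovium against the joint nodes, 15 of 78 were lower and 3 higher in Treg, where 18.5% and 19.2% of genes were, and 19 were lower and 8 higher in Tconv, where 18.4% and 16.3% were. Without the block, the higher counts of ileal Treg, synovial Treg and synovial Tconv each include Ndufa4l2. That gene was kept only through its tissue libraries, so its calls are no test of direction. On total counts without TMM factors, the split over all members was 39 lower and 1 higher in ileal Treg and 36 lower and 3 higher in synovial Treg, as against 15 and 3 and, with the mitochondrial members, 16 and 4. That scaling moved the median of all genes to -0.10 in ileal and -0.22 in synovial Treg, and 5583 and 6556 genes in all were called with it. Single libraries weighed on these counts: of the 18 ileal Treg calls 1, Atp5f1, passed in every fit that left out 1 library, against 14 of 20 in synovial Treg, 27 of 45 in ileal Tconv and 17 of 27 in synovial Tconv. Ileal Treg had 1 call without the mesenteric library TNFdARE C and 38 without the ileal library WT C, and synovial Treg had 34 without the synovial library WT B. These counts are given without their shares of all genes.

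Markers of other cells moved with these comparisons. All 7 stromal marker genes were higher in synovial than in joint-node Treg, and 6 of 7 in synovial Tconv, where their sum was 683 to 2100 CPM, against 6.22 to 17.4 CPM in joint-node Tconv. CD8 and NK cell markers summed to 1190 CPM in the WT synovial Tconv library. All 9 epithelial markers were higher in the ileum than in the mesenteric node in Treg and in Tconv, as were 5 and 6 of 6 plasma cell markers. Their part in the subunit differences was not tested.

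Cox7a2l, Ndufa4 and Ndufs6 were lower in all 4 comparisons, and so was Atp5a1, the alpha subunit of ATP synthase. In ileal Treg none of the 4 passed in every fit that left out 1 library: Cox7a2l and Ndufa4 were lost without the mesenteric library TNFdARE C, Ndufs6 without TNFdARE B or C, and Atp5a1 in 10 of 11 such fits. Cox7a2l had 20.45, 25.03 and 31.79 CPM in TNFdARE and 36.56 and 38.83 CPM in WT synovial Treg, against the joint-node Treg values above, and the groups did not overlap (-0.92 ± 0.15, edgeR adjusted p = 0.0010). In Tconv it had 28.13 and 32.47 CPM in TNFdARE and 54.88 CPM in the WT library of the synovium, all below the joint-node Tconv (-1.11 ± 0.11, adjusted p = 7.6e-05). The ileal changes were smaller, at -0.65 ± 0.07 in Tconv (adjusted p = 1.2e-05) and -0.47 ± 0.12 in Treg (adjusted p = 0.019, or 0.097 without the mesenteric library TNFdARE C).

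Ndufa4, now counted with complex IV although first described in complex I, had log2 changes of -0.50 ± 0.13 in synovial and -0.47 ± 0.13 in ileal Treg, and of -0.26 ± 0.09 in synovial and -0.48 ± 0.08 in ileal Tconv. The synovial Tconv call had an adjusted p of 0.043 (edgeR) and was lost with the replicate block (adjusted p = 0.080). Ndufs6, a complex I subunit that binds zinc, had 41.85, 28.95 and 33.44 CPM in TNFdARE and 23.51 and 37.43 CPM in WT synovial Treg, against 54.14, 59.33 and 56.33 CPM in TNFdARE and 51.73, 45.04 and 44.34 CPM in WT joint-node Treg. The tissue libraries lay below all node libraries (-0.64 ± 0.16, edgeR adjusted p = 0.013). Ndufa3, an accessory complex I subunit, was lower in the synovium, at -0.90 ± 0.12 in Treg (adjusted p = 0.00030) and -0.62 ± 0.13 in Tconv (adjusted p = 0.0053), and did not pass in the ileum, at -0.35 in Treg and -0.12 in Tconv. Whether the synovial and ileal changes of a member differ was not tested. Atp5a1 in ileal Treg was close to the threshold (adjusted p = 0.049) and missed it with the block (adjusted p = 0.062).

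Uqcrfs1, the Rieske iron-sulfur protein of complex III (chromosome 13, 30540308 to 30545362), was the member with the largest rise in synovial Treg apart from Ndufa4l2. It had 221.1, 181.8 and 206.7 CPM in TNFdARE and 143.6 and 152.2 CPM in WT synovial Treg, against 106.4, 89.89 and 89.94 CPM in TNFdARE and 100.6, 72.52 and 75.78 CPM in WT joint-node Treg. Every synovial library lay above every node library (0.98 ± 0.11, edgeR adjusted p = 0.00012). In synovial Tconv the values were 229.7 and 195.5 CPM in TNFdARE and 129.7 CPM in the WT library, against 137.4, 121.6 and 102 CPM in TNFdARE and 110.7, 118.7 and 96.97 CPM in WT node Tconv. The WT synovial library fell inside the node range there (0.56 ± 0.11, adjusted p = 0.0035). In the ileum Uqcrfs1 did not pass, at 0.13 ± 0.11 in Treg and 0.14 ± 0.08 in Tconv.

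Cox5b, a zinc-binding subunit of complex IV (chromosome 1, 36691449 to 36693681), was the one member higher in all 4 tissue comparisons. Ileal Treg had 116.4, 111.5 and 98.64 CPM in TNFdARE and 105, 87.71 and 130.2 CPM in WT libraries, against 85.35 and 85.13 CPM in TNFdARE and 81.12, 74.99 and 77.45 CPM in WT mesenteric Treg. No ileal library overlapped the node (0.42 ± 0.11, edgeR adjusted p = 0.017). The other changes were 0.34 ± 0.07 in ileal Tconv, 0.40 ± 0.14 in synovial Treg and 0.40 ± 0.08 in synovial Tconv. The synovial Treg call (adjusted p = 0.047) was lost without most single libraries, among them either WT synovial library (adjusted p up to 0.10). The ileal Treg call was lost without either TNFdARE mesenteric library (adjusted p = 0.078 and 0.082 without B and C). On total counts both Treg calls missed the threshold (adjusted p = 0.055 in the ileum and 0.14 in the synovium). Cox7c, a small subunit of the same complex, was higher in ileal Treg and Tconv and in synovial Tconv, by 0.33 ± 0.11, 0.23 ± 0.07 and 0.35 ± 0.08. Its ileal Treg call (edgeR adjusted p = 0.048) was lost with the replicate block (adjusted p = 0.075) and in 9 of 11 fits without 1 library.

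In complex I, 4 nuclear members were higher in a single comparison each. Ndufv1, which binds NADH, and Ndufb7 and Ndufs1 were higher in synovial Tconv (edgeR adjusted p = 0.0054, 0.018 and 0.048), by 0.38 ± 0.08, 0.39 ± 0.10 and 0.22 ± 0.07, and the last pair were lower in ileal Tconv, at -0.33 ± 0.10 for Ndufb7 and -0.31 ± 0.06 for Ndufs1. Ndufa1 was higher in ileal Tconv (0.41 ± 0.12, edgeR adjusted p = 0.014). The synovial Ndufs1 call was lost in 7 of 8 fits without 1 library and with the replicate block (adjusted p = 0.155), that of Ndufb7 without the joint-node library TNFdARE C, and that of Ndufa1 without the mesenteric library TNFdARE C and on total counts.

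**Figure D5:**
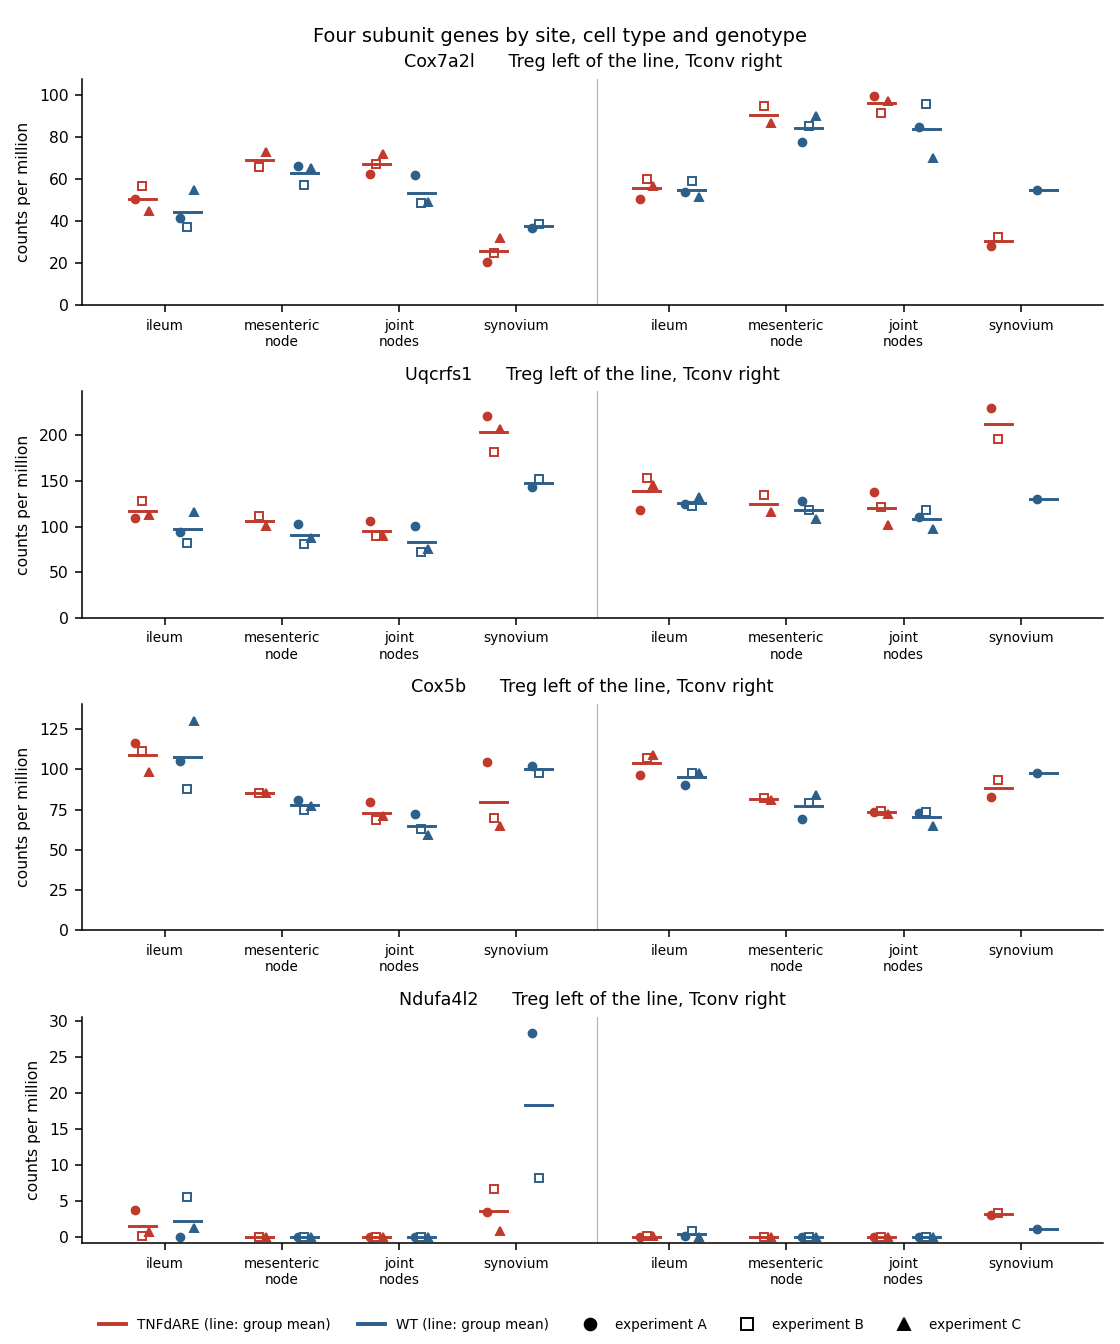
CPM of Cox7a2l, Uqcrfs1, Cox5b and Ndufa4l2 (top to bottom) in 42 libraries by site, Treg left and Tconv right of the line, with lines at group means. Cox7a2l is lowest and Uqcrfs1 highest in TNFdARE synovial cells, and Ndufa4l2 is near 0 in both nodes, with its highest value, 28.3 CPM, in a WT synovial Treg library.

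Mitochondrial members differed in direction between tissue and node. mt-Nd1 had 1618, 1337 and 1423 CPM in TNFdARE and 1709 and 1649 CPM in WT synovial Treg, against 876.6, 929.6 and 870.9 CPM in TNFdARE and 855.8, 1238 and 878.9 CPM in WT joint-node Treg, without overlap (0.76 ± 0.11, edgeR adjusted p = 0.00072). mt-Nd4 was lower in the same comparison (-0.35 ± 0.11, adjusted p = 0.035), at 390.5, 325.6 and 404.6 CPM in TNFdARE and 470.7 and 401.7 CPM in WT synovial Treg. In ileal Tconv 4 of 7 were lower, by 0.19 to 0.36 below 0 on the log2 scale. None passed in ileal Treg or synovial Tconv, where the TNFdARE libraries held 1989 and 954.2 CPM of mt-Nd1.

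Ndufa4l2, a relative of Ndufa4 known as a hypoxia-induced gene (chromosome 10, 127514967 to 127517154), had counts in tissue cells and almost none in nodes. As it passed the level limit only through tissue libraries, its values are given as a description. Its CPM on total counts was at least 379-fold higher in synovial Treg, with 979 counts over the group against 0 in joint-node Treg, and at least 74.4-fold higher in ileal Treg, with 245 counts against 0. In Tconv it was at least 9.38-fold higher in the ileum (31 counts against 0), and the synovial ratio was 345 on 179 counts against 1 (95% interval 61.1 to 13700). Single libraries held much of this: 568 of the synovial Treg counts were in WT A, 111 of the ileal Treg counts in WT B and 22 of the ileal Tconv counts in WT B. Without those libraries the bounds were 196-fold, 47.9-fold and 3.37-fold. Ileal Treg had 3.776, 0.1475 and 0.7038 CPM in TNFdARE and 0, 5.631 and 1.253 CPM in WT. Bounds use a floor of 3 counts over the group, and bounds and interval cover counting error only. Synovial Treg held 3.509, 6.634 and 0.8942 CPM in TNFdARE and 28.29 and 8.277 CPM in WT, so both WT libraries were above the TNFdARE ones. Stromal markers were higher in the same WT libraries, as given above, and their part in this result was not tested. Its ileal Treg call was lost with the replicate block. As the level limit selected this gene through tissue libraries, its calls are no test of a tissue difference.

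Genes around the chain were taken as lists, whose counts stand against the shares of all genes given above: 12.2% lower and 17% higher in ileal Treg, 18.5% and 19.2% in synovial Treg, 26.7% and 34.3% in ileal Tconv, and 18.4% and 16.3% in synovial Tconv. Among 46 assembly factors, which build the complexes, 22 were lower and 3 higher in ileal Tconv, 13 and 5 in synovial Tconv, 9 and 1 in ileal Treg and 11 and 0 in synovial Treg, relative to the nodes. Lrpprc, which stabilises mitochondrial messenger RNA, fell by 0.91 on the log2 scale in ileal Treg and by 0.72 in synovial Treg. Of 20 biogenesis genes, 11 were lower and 3 higher in ileal Tconv, 6 and 2 in ileal Treg and 10 and 1 in synovial Tconv. In synovial Treg 4 of 19 were lower, a share near that of all genes, and 1 was higher. Pprc1, a coactivator of nuclear mitochondrial genes, was lower in all 4, at -1.10 ± 0.12 in ileal and -1.81 ± 0.22 in synovial Treg, and Polg2, the accessory subunit of the mitochondrial DNA polymerase, was higher in all 4.

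Of the glycolysis genes, more were higher than lower in tissue, to be read against the same shares. Of 22, 12 were higher and 2 lower in synovial Treg, 10 and 3 in ileal Treg, 15 and 2 in synovial Tconv and 11 and 5 in ileal Tconv. Hif1a, the oxygen-sensing transcription factor, was higher by 1.95 ± 0.11 in synovial Treg and 1.49 ± 0.08 in synovial Tconv, and Slc16a3, a lactate exporter, by 1.99 ± 0.15 in ileal Treg. Pdk1, which restrains entry of pyruvate into the citric acid cycle, was lower in ileal Tconv (-1.68 ± 0.08). Slc25a3, the phosphate carrier that feeds ATP synthase, was higher in all 4, by 1.98 ± 0.18 in ileal and 1.37 ± 0.13 in synovial Treg. Proliferation markers were higher too, 8 of 8 in Tconv of both tissues and 3 of 8 in Treg of both.

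Between Treg and Tconv of the joint nodes, 20 of 46 assembly factors were lower and 2 higher, 9 of 21 citric acid cycle genes lower and none higher, and 8 of 22 glycolysis genes lower and 5 higher, where 21.2% of all genes were lower and 22.1% higher. The higher share of glycolysis genes was near that of all genes. Idh2, mitochondrial isocitrate dehydrogenase, was lower (-1.43 ± 0.08), as was Gpd2, which passes glycerol phosphate electrons to the chain (-1.03 ± 0.08), while Prodh, proline dehydrogenase, was higher by 2.48 ± 0.23. Some list genes differed by genotype, where 5.7% of all genes passed in joint-node Treg and 5.68% in mesenteric Treg. How many of each list passed is not given here. In joint-node Treg, TNFdARE was higher for the assembly factors Sdhaf4 (0.47 ± 0.11) and Acad9 (0.35 ± 0.09) and for Slc25a4, an ADP/ATP carrier of the inner membrane (0.39 ± 0.10), and lower for Pdk1 (-0.42 ± 0.11). In mesenteric Treg, Slc25a4 was higher as well (0.42 ± 0.09), and so were Idh3a (0.35 ± 0.08) and the glucose transporter Slc2a3 (0.52 ± 0.12), while Ldhb, a lactate dehydrogenase chain, was lower (-0.62 ± 0.15).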

How the data were processed

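Sorted cells yielded full-length cDNA, made by SMART-Seq v4 PLUS from 1 of 2 input amounts and sequenced as single reads, per the labels' protocols; which library had which amount is not given in the sources used here. The authors deposited raw counts per gene and, in a second table, FPKM values. The submitters' processing notes name cutadapt 1.15, Bowtie2 2.3.3.1 and GRCm38; how reads were counted is not given in the sources used here. Members and lists were chosen with earlier results of these data known.

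Counts were tested with edgeR 4.0.16 (R 4.3.3): TMM scaling, filterByExpr, quasi-likelihood F tests, Benjamini-Hochberg adjustment over all genes tested and a threshold of 0.05. Genotype and cell type were fitted over the 4 groups of a site, and tissue against node over the 4 groups of a cell type. CPM values use TMM library sizes except where named below, errors of fold changes are standard errors and those of group means SD. The code was tested on simulated counts. The deposited FPKM served only for levels between genes. Ndufa4l2 folds, the mean CPM of the level limit, Foxp3, Tnf and the marker sums used total-count CPM.

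Genes named were those past the threshold with the smallest adjusted p (up to 5 in each direction), core and regulatory subunits, and up to 3 genes of each list. Others named for overlap, a lost call or a value near the threshold were chosen after their values were seen.

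Experiment letters mark independent experiments, so same-letter libraries are paired by design; the fits carry no experiment term except where the replicate block, an alternative, is named. Deviations from group means correlated above 0.1 in 12 of 18 same-letter pairs (median 0.2285, range -0.25 to 0.509, over 8935 genes). Alternatives were RLE factors, total counts, a looser count filter, DESeq2 1.42.0, the replicate block, only the groups compared, the sample-sheet number as a covariate and leaving out single libraries. A fit without the joint-node Tconv libraries with most genes detected was added later, and its counts are not given here. Most synovial libraries and some ileal Treg libraries have the highest sample-sheet numbers, so the covariate is partly aligned with site as well.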

Additional observations from a re-analysis of the deposited data

How the results depend on the processing

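Counts of members called depended on the processing where differences were small. In joint-node Treg, TNFdARE against WT, the 6 calls became 15 with RLE factors, 19 on total counts, 2 with the looser count filter, 30 with DESeq2, 20 with the replicate block and 0 with the sample-sheet number as a covariate, and 0 to 31 without single libraries. Over all genes, 838 were called as reported, 977 on total counts and 1524 with the replicate block. Shares of all genes under the other settings and without single libraries are not given here. Member counts under those, here, above and below, may follow settings that call more or fewer genes in general. For ileal Treg the 0 calls became 1 on total counts, 5 with DESeq2, 1 with the replicate block and 0 to 2 without single libraries. For mesenteric Treg they became 1 with the looser filter, 3 with DESeq2 and 0 to 2 without single libraries. DESeq2 called 1 member in synovial Treg (0 to 4 without single libraries) and 1 in ileal Tconv.

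Between Treg and Tconv, the 6 ileal calls became 10 with DESeq2, 1 with the covariate and 5 to 17 without single libraries. The 32 mesenteric calls ran from 20 to 36 and the 0 synovial calls from 0 to 2 without single libraries, with 3 by DESeq2. For ileal against mesenteric Treg the 18 calls became 40 on total counts, 9 with the replicate block, 4 with the covariate, 1 to 38 without single libraries and 8 without the ileal libraries of experiment A, a setting chosen after seeing the data. For synovial against joint-node Treg the 20 became 39 on total counts, 8 with the covariate and 15 to 34 without single libraries. For synovial Tconv the 27 became 15 with the covariate. The causes were not tested. The replicate block moved no other count of calls by over 1.5 times. Total counts moved the median of all genes in the tissue comparisons to -0.10 in ileal Treg and -0.22 in synovial Treg. No called member or core subunit that passed in either fit changed sign under the alternatives run. Counts and medians were not checked for a reversal. The covariate could not be fitted in the mesenteric node or in ileal against mesenteric Tconv. Synovial groups of 1 or 2 libraries limit the precision of the synovial comparisons.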
